A study of Mus musculus with 8 samples.

Results

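The tumor suppressor locus of mouse chromosome 4 was examined in chromatin of Lewis lung carcinoma isografts. It was taken as 4 genes, Mtap, Cdkn2a, Cdkn2b and Dmrta1, of 22367 annotated protein-coding genes, chosen by name for their place at this locus, with the window from 500 kb before Mtap to 500 kb past Dmrta1. The question was whether the DNA of the locus was present in both tumor lines, and what the histone marks showed at its promoters and gene bodies. LLC-NR cells are Lewis lung carcinoma cells that respond to the VEGF inhibitor VEGF-Trap, and LLC-R cells were derived from the same carcinoma by repeated selection in mice under VEGF-Trap. Both were grown under the skin of the flank of young adult female C57BL/6J mice to about 500 mm3. The study profiled H3K4me3, H3K9ac, H3K27me3 and H3K36me3 by ChIP-seq of nucleosomes released by micrococcal nuclease from crosslinked tissue, with 1 library per line and mark and 8 in all. The number of tumors behind a library is not given in the sources used here, host cells were not removed, and no input library was used. With 1 library per line and mark the lines cannot be compared by a test, and the 4 marks of a line are different measurements, not replicates.

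Cdkn2a encodes a pair of unrelated tumor suppressors from alternative first exons spliced to shared exons. Exon 1α gives p16Ink4a, which inhibits the kinases CDK4 and CDK6 and keeps RB active, and exon 1β gives p19Arf, which binds MDM2 and stabilizes p53. Cdkn2b encodes p15Ink4b, a close relative of p16Ink4a that inhibits the same kinases. In proliferating normal cells the locus is held silent by Polycomb complexes, which write and read H3K27me3, and it is activated in senescence and by oncogenes. Its deletion is among the commonest losses in cancers and in immortal mouse cell lines, and the neighboring gene Mtap, an enzyme of methionine salvage, is often lost with it. Dmrta1, on the far side, encodes a transcription factor with a DM domain. H3K4me3 and H3K9ac mark active promoters, and H3K36me3 marks bodies of transcribed genes.

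On mm9 with GENCODE vM1 gene models, Mtap (ENSMUSG00000062937.5) lay at chr4:88783026-88826985 on the plus strand. Cdkn2a (ENSMUSG00000044303.5) lay at chr4:88920377-88940557 on the minus strand and Cdkn2b (ENSMUSG00000073802.4) at chr4:88952198-88956941, also on the minus strand. Dmrta1 (ENSMUSG00000043753.2) lay at chr4:89346127-89361463 on the plus strand. The exon 1β and exon 1α starts of Cdkn2a are 12.5 kb apart. The 300 bases around the 3 starts that the results turn on are shown here, from 250 bases before to 50 after each start, in mm9, all on the minus strand and 5′ to 3′. Capitals mark GGGCGG, the core of the GC box bound by SP1-type factors, which was searched on both strands.
Cdkn2a exon 1β start, p19Arf, chr4:88940508-88940807: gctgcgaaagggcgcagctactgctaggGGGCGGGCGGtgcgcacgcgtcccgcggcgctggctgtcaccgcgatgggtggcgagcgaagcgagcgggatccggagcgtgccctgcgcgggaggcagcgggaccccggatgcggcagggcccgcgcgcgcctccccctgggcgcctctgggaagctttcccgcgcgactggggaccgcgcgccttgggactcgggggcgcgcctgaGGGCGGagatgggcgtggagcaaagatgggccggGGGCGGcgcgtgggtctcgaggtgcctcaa
Cdkn2a exon 1α start, p16Ink4a, chr4:88928047-88928346: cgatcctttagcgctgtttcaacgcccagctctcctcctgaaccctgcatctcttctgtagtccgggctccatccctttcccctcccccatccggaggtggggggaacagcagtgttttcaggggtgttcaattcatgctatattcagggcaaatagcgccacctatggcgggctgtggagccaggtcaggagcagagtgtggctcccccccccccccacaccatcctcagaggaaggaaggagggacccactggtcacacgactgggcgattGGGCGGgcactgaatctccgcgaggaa
Cdkn2b start, p15Ink4b, chr4:88956892-88957191: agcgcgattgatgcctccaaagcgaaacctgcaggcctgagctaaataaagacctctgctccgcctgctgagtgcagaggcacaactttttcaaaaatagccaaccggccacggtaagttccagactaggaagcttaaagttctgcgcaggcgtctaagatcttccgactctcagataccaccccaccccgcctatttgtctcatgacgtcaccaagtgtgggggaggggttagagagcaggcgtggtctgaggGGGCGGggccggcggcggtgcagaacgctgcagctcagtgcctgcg
The Arf start held 4 matches to GGGCGG (the first 2 overlap), 44 CpG dinucleotides and 76.3% G+C. The p16Ink4a start held 1 match, 12 CpG and 60.3% G+C, and the Cdkn2b start 1 match, 18 CpG and 57.7% G+C. Of 32851 RefSeq promoters of the same length (GRCm38.p6), 35.7% held the motif, and their median was 7 CpG. The Arf start is therefore the most CpG-rich of the 3, and all 3 lay above the median. A match is a string of letters and not a measured binding site.

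The deposited data list peak positions only. Every peak is 147 bp wide, none overlaps another of its library, and no height is given, so the numbers of peaks are the measurement throughout, and the intervals given are exact 95% Poisson intervals that cover counting error only. Libraries held 5660458 to 9101721 peaks. Peaks were spread over the whole genome rather than confined to promoters, so the number of peaks over a long stretch also carries the amount of DNA recovered there. Numbers of peaks saturate, since each position can hold only 1, so they respond less than the underlying signal to a change.

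By the rule set for the window, no member lay in a low tile in either line. Each 10-kb tile was given a level, which is its number of peaks over the median tile of the rest of chromosome 4 in the same library, and a tile was called low when the level was under 0.5 in all 4 libraries of a line. In LLC-NR tumors 10 of 151 tiles were low, beside a background of 7.16% of 15027 tiles elsewhere on chromosome 4. In LLC-R tumors 12 of 151 were low, beside 7.15%. The longest run was the same 4 tiles in both lines, chr4:88410001-88450000, in the interferon gene cluster on the side of Mtap. It ranked 27 of 460 runs on the chromosome in LLC-NR versus 18 of 503 in LLC-R. The cluster holds near-identical gene copies, to which unique reads cannot map: 12.7% of the 32-base words of its member Ifnz occur once in the genome. The median level of the window was 0.970 in LLC-NR versus 0.917 in LLC-R, beside 1.04 (SD 0.298 over tiles) and 1.02 (SD 0.266) elsewhere. No low tile overlapped a member, and all low tiles of the window had only 0.25 to 58.8% unique 32-base words.

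When peaks were counted per unique 32-base word, 1 contiguous segment of lower level appeared between Mtap and Dmrta1 in all 8 libraries. This count was added after the data had been seen, and the segment was chosen by its level, so its level is a description and not a test. Fitting 2 edges to 1-kb bins of all 8 libraries together placed it at chr4:88911001-89333000, a length of 422 kb, in which the level was 0.580 of that in the rest of the window. Cdkn2a and Cdkn2b lay inside this joint fit, but the fit to the LLC-NR libraries alone began at 88959001, to the right of both genes. Mtap ended 84.0 kb to the left of the joint segment, and Dmrta1 began 13.1 kb to its right. The segment contains an assembly gap of 50 kb at chr4:88962709-89012708, which starts 5.77 kb upstream of the Cdkn2b start and was left out of every level.

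**Figure D1:**
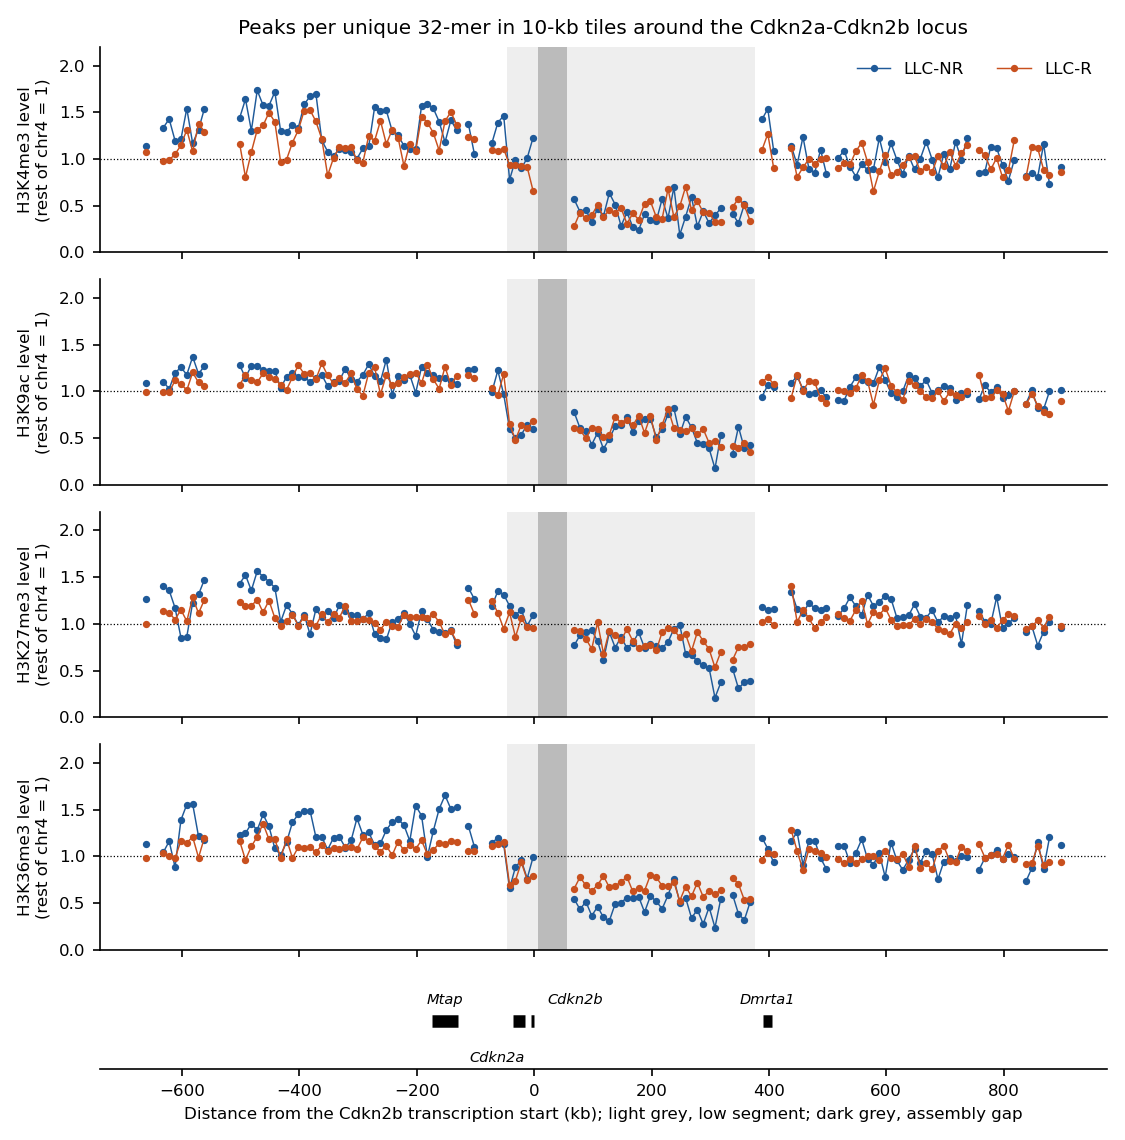
Each dot is a 10-kb tile of at least 50% unique 32-base words, plotted by its distance in kb from the Cdkn2b start (horizontal axis) and its number of peaks per unique 32-base word relative to the rest of chromosome 4 (vertical axis), 1 panel per mark, LLC-NR in blue and LLC-R in orange. Levels step down at the left edge of the light grey segment most clearly in H3K9ac, are lower still right of the assembly gap (dark grey) in the other marks, and return to about 1 before Dmrta1 in every panel.

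In LLC-NR tumors the level of the segment per unique 32-base word, with the rest of chromosome 4 as 1, was 0.496 (0.45 to 0.546) for H3K4me3, 0.565 (0.525 to 0.608) for H3K9ac, 0.75 (0.699 to 0.803) for H3K27me3 and 0.523 (0.478 to 0.571) for H3K36me3. In LLC-R tumors it was 0.507 (0.460 to 0.556), 0.576 (0.534 to 0.621), 0.841 (0.794 to 0.891) and 0.690 (0.646 to 0.737) for the same marks. The interval of the segment lay below 1 in 8 of 8 libraries, in the sensitive and in the resistant tumors alike. Because the edges were fitted to the level of the same libraries, low intervals were in part built in and are a description. In the part left of the assembly gap, which holds Cdkn2a and Cdkn2b, the H3K4me3 and H3K27me3 intervals included 1 in both lines. The H3K36me3 interval of that part included 1 for LLC-NR only. Its H3K9ac interval lay below 1 in both lines. Over the whole segment, the means of the 4 libraries were 0.584 (SD 0.114) in LLC-NR versus 0.654 (SD 0.146) in LLC-R. Between the lines, the intervals for H3K4me3, H3K9ac and H3K27me3 overlapped, and that for H3K36me3 lay higher in LLC-R. The libraries also differ in spread. Over 338 blocks of the same length on chromosome 4, described below, the SD for H3K36me3 was 0.138 in LLC-NR versus 0.0472 in LLC-R. In units of that SD the segment stood at -3.36 from the median block in LLC-NR versus -6.43 in LLC-R. The higher level in LLC-R is therefore not a weaker reduction on the scale of its own library. The 2 H3K4me3 libraries, which had the fewest peaks (5678337 and 5660458), had the lowest levels of their lines, and LLC-R H3K27me3, with the most (9101721), had the highest. Other libraries depart from that order. LLC-NR H3K9ac had 8547101 peaks and a level of 0.565. LLC-NR H3K27me3, with 7245090 peaks, stood at 0.75, above LLC-R H3K9ac (7853593 peaks, 0.576) and LLC-R H3K36me3 (8747519 peaks, 0.690). The part of library size in the difference between marks and lines was not tested.

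The flanks showed no such reduction. The left flank within the window, which holds Mtap, had mean levels of 1.23 in LLC-NR versus 1.12 in LLC-R, and the right flank, which holds Dmrta1, had 1.03 and 0.998. Of the 10-kb tiles in which at least 50% of the 32-base words were unique, 29 of 35 inside the segment had a mean level under 0.75 in LLC-NR versus 29 of 35 in LLC-R. None of the 98 flank tiles did in either line, and elsewhere on chromosome 4 the share was 2.25% in LLC-NR versus 0.781% in LLC-R. Because the edges were fitted to the level, the contrast of segment and flank tiles is in part built in and is a description. The lowest segment tile was at 0.255 in LLC-NR and at 0.482 in LLC-R, so no tile was empty of peaks. DNA from host cells in the tumor and peaks placed on background reads would both be counted here. Without an input library, fewer copies of the DNA per tumor cell, loss in some tumor cells only, and chromatin that was present but recovered less cannot be told apart.

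The segment was set beside stretches of its length on the chromosome. Its edges were fitted to its low level and those of the other stretches were not, so a low rank is in part built in, and the ranks are a description. Chromosome 4 outside the window was divided into 338 blocks of 422 kb with at least 50% unique words, and in LLC-NR 1, 3, 11 and 1 of them were lower than the segment for H3K4me3, H3K9ac, H3K27me3 and H3K36me3. In LLC-R the numbers were 0, 1, 3 and 1. On the mean of 8 libraries the segment stood at 0.619 and the blocks had a median of 1.0 (SD 0.0814), with 1 block lower. The blocks under 0.75 were 4, and they adjoined each other at 112.298 to 113.986 Mb. Those 4 had 63.7 to 72.9% unique words and 36.4 to 38.3% G+C, while the segment had 87.2% unique words and 40.9% G+C. The 58 blocks within 1 percentage point of the G+C content of the segment ranged from 0.908 to 1.11.

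**Figure D2:**
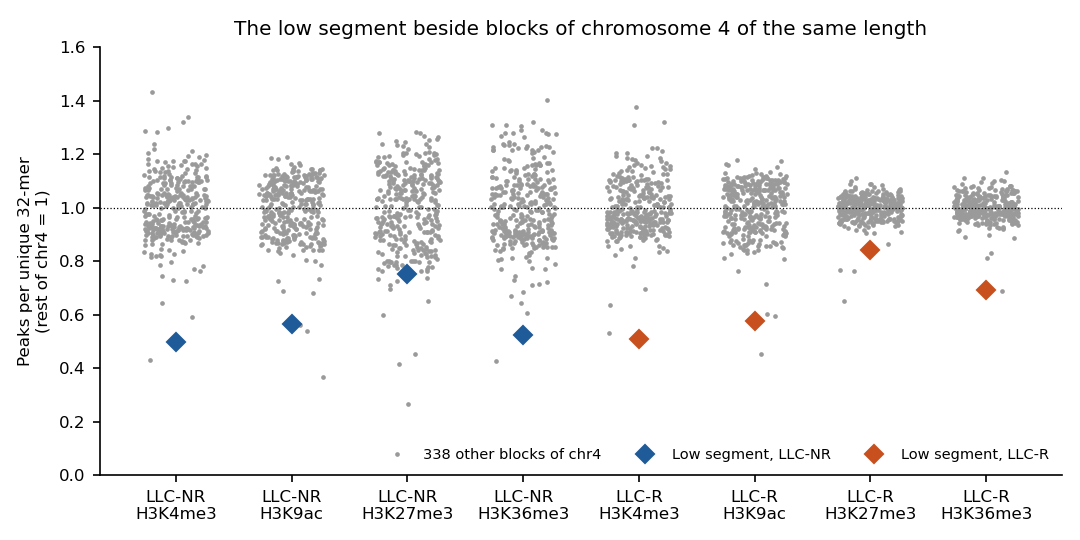
For each library (horizontal axis), the grey points are the 338 blocks of 422 kb of chromosome 4 outside the window and the diamond is the low segment, by peaks per unique 32-base word with the rest of chromosome 4 as 1 (vertical axis). In LLC-NR H3K27me3 the diamond is at 0.75 and 11 blocks are lower, down to 0.265. In every other library the diamond lies near the bottom of the blocks, with 0 to 3 of them lower.

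The fitted right edge was nearly the same in every library, whereas the left edge moved with the mark. Because the edges were fitted to the level of the same libraries, the step at each edge is in part built in and is a description. Fitted library by library, the right edge fell at 89332000 or 89333000 in 8 of 8 libraries. It borders 6 kb of repeats (19.1% unique words). The bins of these repeats had too few unique words to enter the fit, so no edge could be placed within them. In the 10 kb inside it LLC-NR tumors had 5.65 peaks of the 4 libraries per 1000 unique words (4.26 to 7.35) and LLC-R tumors 8.32 (6.61 to 10.3), and in the 10 kb outside it, just before Dmrta1, 15.5 (13.2 to 18.2) and 15.6 (13.2 to 18.3). At the left edge, 5 kb of repeats (15.5% unique words) separated 16 (13.4 to 18.9) and 16.2 (13.6 to 19.2) on the Mtap side from 10.2 (8.27 to 12.5) and 11.9 (9.83 to 14.4) on the Cdkn2a side. The step was therefore larger on the right, and on the left the intervals of LLC-NR did not meet while those of LLC-R overlapped.

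**Figure D3:**
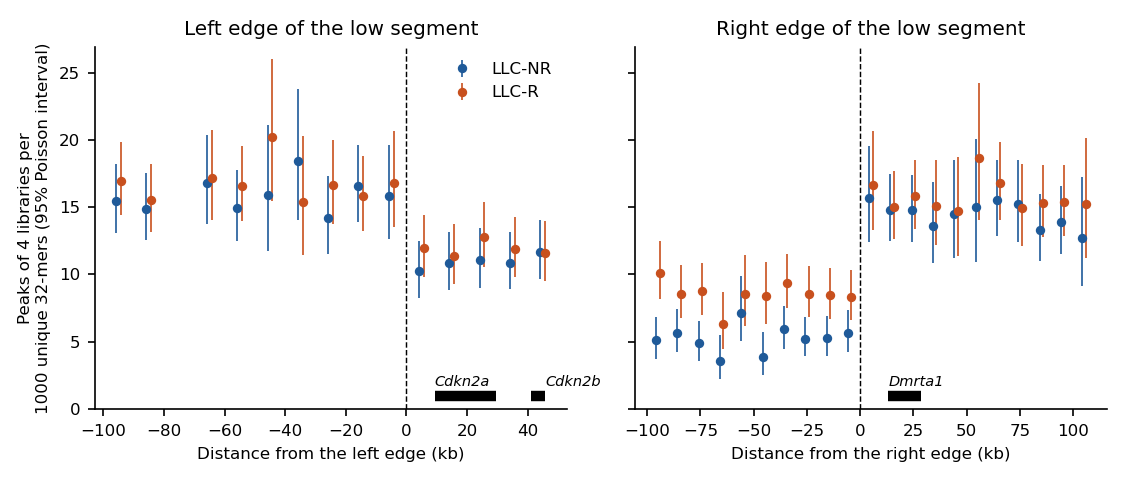
Peaks of the 4 libraries of a line per 1000 unique 32-base words (vertical axis, with exact 95% Poisson intervals) in 10-kb steps by distance from the left and right edges of the low segment (horizontal axes), LLC-NR in blue and LLC-R in orange. The level drops from about 16 to 10.2 in LLC-NR versus 11.9 in LLC-R at the left edge, ahead of Cdkn2a, and rises from 5.65 and 8.32 to 15.5 and 15.6 at the right edge, ahead of Dmrta1.

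Whether Cdkn2a and Cdkn2b fell inside the lowered stretch depended on the mark and on the line. For H3K9ac the fitted left edge was 88910001 in LLC-NR versus 88911001 in LLC-R, and for LLC-R H3K36me3 it was 88905001, all to the left of Cdkn2a, so that both genes were inside. For H3K27me3 it was 88957001 in LLC-NR, just upstream of the Cdkn2b start, and 88955001 in LLC-R, within Cdkn2b. For H3K4me3 it was 88959001 in LLC-NR versus 88944001 in LLC-R, and for LLC-NR H3K36me3 it was 88955001. Cdkn2a was outside in each of these fits to H3K27me3, H3K4me3 and LLC-NR H3K36me3. In LLC-NR H3K4me3 and LLC-NR H3K27me3 Cdkn2b was outside too. In LLC-NR H3K36me3 and LLC-R H3K27me3 the edge fell within Cdkn2b. For the 4 libraries of LLC-NR together the left edge was 88959001, so that both genes were outside. The length was then 374 kb and the level 0.489 of the rest of the window. For the 4 libraries of LLC-R together it was 88911001, with both genes inside, a length of 421 kb and a level of 0.634.

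The 36.6 kb from the end of Cdkn2a to the Cdkn2b start were lowest for H3K9ac. Per unique 32-base word, with the rest of chromosome 4 as 1, this stretch had levels of 1.02 for H3K4me3, 0.537 for H3K9ac, 1.10 for H3K27me3 and 0.891 for H3K36me3 in LLC-NR tumors. In LLC-R tumors the levels were 0.863, 0.596, 0.959 and 0.811. The 100 kb to the left had 1.29, 1.13, 1.19 and 1.32 in LLC-NR versus 1.23, 1.10, 1.08 and 1.14 in LLC-R, so the stretch was lower in 8 of 8 libraries. The intervals of the stretch and of the 100 kb did not meet for H3K9ac and H3K36me3 in either line, and overlapped for H3K4me3 and H3K27me3 in both. Right of the assembly gap, where no protein-coding gene is annotated, the levels were 0.417, 0.564, 0.692 and 0.468 in LLC-NR versus 0.449, 0.571, 0.817 and 0.673 in LLC-R.

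Other annotated genes of the segment were few and noncoding. Of 51 other genes in the window 28 are protein-coding, and all 28 lie left of the segment, as does Mir31. The lincRNA Gm12609 had mean levels per unique 32-base word of 0.548 in LLC-NR versus 0.638 in LLC-R, and the lincRNA Gm12610 had 0.578 and 0.663. Both are thus at about the level of the segment as a whole. The processed transcript Gm12606, which crosses the left edge, had 1.09 and 1.02, and the pseudogene Gm12608, with 0 to 8 peaks per library, lay within Gm12610.

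Over gene bodies, H3K9ac was low on Cdkn2a and Cdkn2b and ordinary on Mtap and Dmrta1, in both lines. Gene body levels are peaks per 10 kb over the median 10-kb tile of chromosome 4 of the same library, and 16526 protein-coding genes of at least 5 kb give the background. The call of a low body, under 0.5 in all 4 libraries of a line, was met by 0 of 4 members, beside a background of 3.95% of genes in LLC-NR versus 3.93% in LLC-R. The means of the 4 libraries in LLC-NR and LLC-R were 1.33 and 1.21 for Mtap, 0.946 and 0.854 for Cdkn2a, 1.12 and 0.846 for Cdkn2b, and 1.26 and 1.11 for Dmrta1. The medians of all genes were 1.16 and 1.10.

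Cdkn2a, 20.2 kb long, held 47 peaks of H3K4me3, 38 of H3K9ac, 71 of H3K27me3 and 50 of H3K36me3 in LLC-NR tumors, and 47, 37, 77 and 63 in LLC-R tumors. For H3K9ac these are gene body levels of 0.523 (0.370 to 0.718) and 0.556 (0.391 to 0.766), below 1 beyond counting error in both lines and at the percentiles 4.60 and 5.0 of genes. Its H3K27me3 level was 1.26 (0.981 to 1.58) in LLC-NR, at the percentile 72.9, and 1.0 (0.792 to 1.3) in LLC-R, at 51.8. H3K4me3 was at 1.01 in both lines, at the percentiles 26.9 and 25.7. Cdkn2a therefore combined a low level of H3K9ac with H3K4me3 and H3K27me3 levels whose intervals included 1, in sensitive and resistant tumors. For H3K36me3 the levels were 0.991 in LLC-NR versus 0.844 in LLC-R, at the percentiles 22.4 and 8.63. The low H3K9ac was not particular to the gene. Counted per unique 32-base word, Cdkn2a had H3K9ac levels of 0.513 (LLC-NR) and 0.539 (LLC-R). Right of the assembly gap, where no protein-coding gene is annotated, H3K9ac stood at 0.564 and 0.571.

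Cdkn2b is 4.74 kb long and so is known less precisely. It is shorter than every gene of the background, which starts at 5 kb, so its percentiles are set against longer genes. It held 16 peaks of H3K4me3, 8 of H3K9ac, 19 of H3K27me3 and 13 of H3K36me3 in LLC-NR tumors, and 9, 11, 17 and 16 in LLC-R tumors. The H3K9ac gene body levels were 0.468 (0.202 to 0.923) and 0.703 (0.351 to 1.26), at the percentiles 4.28 and 6.34, the lowest mark of this gene in both lines. H3K27me3 was at 1.43 (0.861 to 2.23) in LLC-NR, at the percentile 90.1, and at 0.943 (0.549 to 1.51) in LLC-R, at 30.2. H3K4me3 was at 1.47 (0.838 to 2.38) and 0.825 (0.377 to 1.57). The intervals of LLC-NR and LLC-R overlapped in every mark of Cdkn2b.

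Mtap, 44 kb long, held 147 H3K4me3, 185 H3K9ac, 121 H3K27me3 and 187 H3K36me3 peaks in LLC-NR tumors, and 151, 171, 166 and 190 in LLC-R tumors. Its H3K36me3 gene body level was 1.7 (1.47 to 1.96) in LLC-NR, at the percentile 98.3 of genes, and 1.17 (1.01 to 1.35) in LLC-R, at 87.9. Mtap thus stood high for the mark of transcribed gene bodies in both lines, and these intervals did not meet. Dmrta1 held 54, 62, 53 and 44 peaks in LLC-NR versus 42, 58, 64 and 57 in LLC-R, with gene body levels from 1.12 to 1.53 and from 1.0 to 1.19.

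**Figure D4:**
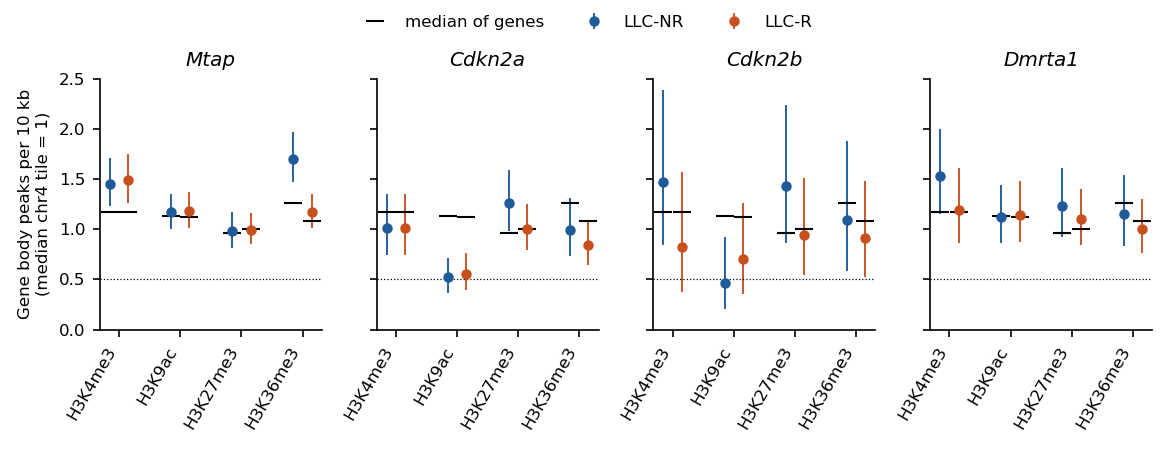
Gene body peaks per 10 kb relative to the median tile of chromosome 4 (vertical axis, exact 95% Poisson intervals) for each mark (horizontal axis) and member, LLC-NR in blue and LLC-R in orange, with a black dash at the median of protein-coding genes and a dotted line at 0.5. The H3K9ac points of Cdkn2a (0.523 and 0.556) and Cdkn2b (0.468 and 0.703) lie below the dash, and those of Mtap and Dmrta1 lie on it.

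No member met the call for a difference between the lines in all marks, which almost no gene met. A gene was called lower or higher in LLC-R when its gene body level, with 1 peak added, was past 1.5-fold in the same direction in all 4 marks. That held for 0 of 4 members, beside 0% of genes lower and 0.0545% higher, so this count says little about the members. For Cdkn2a the log2 ratios of LLC-R to LLC-NR gene body levels were 0.00 for H3K4me3 (-0.61 to 0.61), 0.09 for H3K9ac (-0.61 to 0.78), -0.33 for H3K27me3 (-0.81 to 0.16) and -0.24 for H3K36me3 (-0.79 to 0.33). For Cdkn2b they were -0.77 (-2.19 to 0.43), 0.54 (-0.86 to 2.10), -0.59 (-1.64 to 0.42) and -0.29 (-1.41 to 0.91). All 8 intervals include 0. Those of Cdkn2a for H3K4me3 and H3K9ac and those of Cdkn2b for H3K9ac and H3K36me3 are wide enough to hold changes of more than 1.5-fold in either direction. Dmrta1 had log2 ratios from -0.36 to 0.03, also with intervals that include 0. H3K36me3 of Mtap had a log2 ratio of -0.54 (-0.84 to -0.24), an interval that leaves out 0 but includes the median of -0.26 over all genes, and the other marks of Mtap were at 0.01 to 0.04.

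At the promoters, taken as the 1 kb before and the 0.5 kb after a start, the 3 starts of Cdkn2a and Cdkn2b held numbers of H3K4me3 and H3K27me3 peaks near those of promoters in general, and the Arf and p16Ink4a starts held fewer H3K9ac peaks. The Arf start, whose CpG-rich sequence is shown above, held 6 peaks of H3K4me3, 4 of H3K9ac, 6 of H3K27me3 and 2 of H3K36me3 in LLC-NR tumors and 7, 2, 7 and 5 in LLC-R tumors. The medians of all 22367 promoters were 5, 6, 5 and 3 in LLC-NR versus 5, 5, 6 and 5 in LLC-R. The Arf start was thus above the median for H3K4me3 and H3K27me3 and below it for H3K9ac in both lines. The p16Ink4a start held 5, 0, 4 and 3 peaks in LLC-NR versus 3, 4, 6 and 5 in LLC-R. Its H3K4me3 was at the median in LLC-NR and below it in LLC-R. It was without any H3K9ac peak in LLC-NR only, although it held 5 of H3K4me3 there. Among the promoters of all genes with at least 5 H3K4me3 peaks in LLC-NR, 7 of 14276 (0.0490%) had no H3K9ac peak. This share was looked up after the value at p16Ink4a had been seen and describes that library alone. Its promoters are 1 main start per gene, which for Cdkn2a is the Arf start. It also makes no allowance for the low H3K9ac level of the whole Cdkn2a body in LLC-NR, 0.523, so it does not show that the p16Ink4a start stands out from its surroundings.

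The Cdkn2b start held 7 H3K4me3, 5 H3K9ac, 5 H3K27me3 and 4 H3K36me3 peaks in LLC-NR tumors and 4, 5, 5 and 4 in LLC-R tumors. H3K4me3 was thus 3 peaks lower in LLC-R, where it lay below the median of promoters, and the other 3 marks were the same. The Mtap start held 6, 6, 4 and 3 in LLC-NR versus 6, 7, 6 and 6 in LLC-R. Dmrta1 has 2 annotated starts. The upstream one, of a noncoding transcript, held 6, 7, 7 and 6 peaks in LLC-NR versus 5, 5, 7 and 7 in LLC-R, and the coding one at 89354889 held 6, 4, 6 and 4 and 6, 4, 7 and 6.

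A difference of 2 or more peaks between the lines was met at the main start of each member in 6 of 16 pairs of gene and mark, 3 lower and 3 higher in LLC-R. The pairs lower in LLC-R were H3K9ac at the Arf start, H3K4me3 at Cdkn2b and H3K9ac at Dmrta1. The background lower by 2 or more was 18.4% of promoters for H3K4me3, 22.1% for H3K9ac, 3.47% for H3K27me3 and 1.11% for H3K36me3. The pairs higher were H3K36me3 at the Arf start and H3K27me3 and H3K36me3 at Mtap. The background higher was 9.01% for H3K4me3, 5.4% for H3K9ac, 32% for H3K27me3 and 56% for H3K36me3. These are, for each mark, the directions in which more promoters of these libraries moved, so the 6 pairs are not a result about the members.

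**Figure D5:**
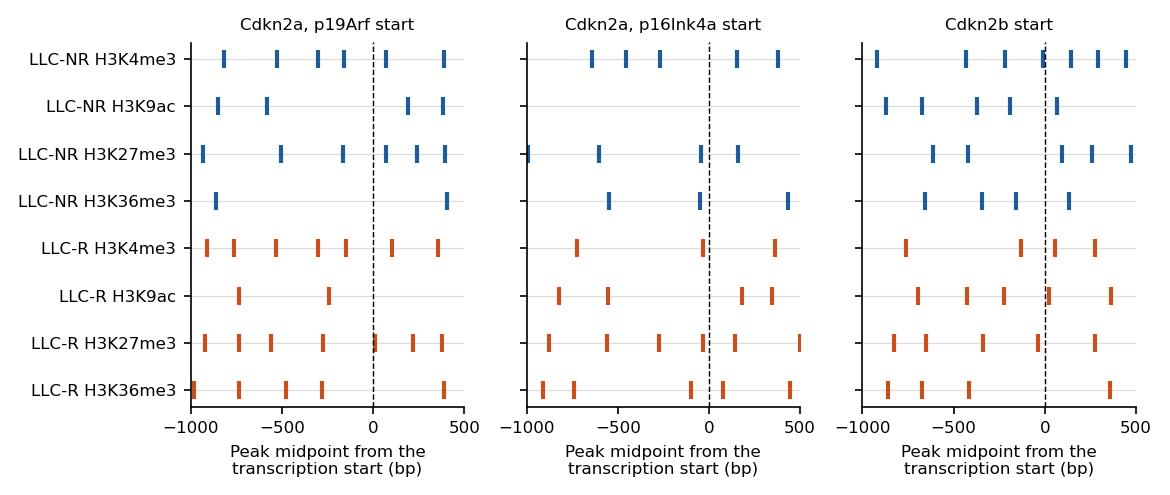
Each tick is the midpoint of a peak by its distance in bp from the transcription start (horizontal axis), 1 row per library (vertical axis), for the p19Arf and p16Ink4a starts of Cdkn2a and the Cdkn2b start, LLC-NR in blue and LLC-R in orange. The LLC-NR H3K9ac row of the p16Ink4a start is empty, and the H3K4me3 row of the Cdkn2b start has 7 ticks in LLC-NR versus 4 in LLC-R.

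The genes with the pattern most like each suppressor were found by the root mean square difference of the log2 gene body levels over the 8 libraries, among 15861 autosomal protein-coding genes of at least 5 kb. For Cdkn2a they were Slitrk5, 4930522H14Rik, Gm6289 and 2 annotated entries of 4932414N04Rik, at 0.285 to 0.30, where the median gene was at 0.619. For Cdkn2b they were Nkx6-1, 4930504O13Rik, Evx2, Dmrta2 and Slitrk5, at 0.290 to 0.322, with a median of 0.577. Nkx6-1, Evx2 and Dmrta2 are developmental transcription factors, and Slitrk5 is a neuronal membrane protein found in both lists. For these levels 1 peak was added to each gene body, which raises the levels of short genes most. Cdkn2b is 4.74 kb long, and the 5 genes nearest to it were 5.635 to 8.02 kb long. The part of gene length in the list was not tested. The levels of the libraries share their depth, and likeness here is a description.

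The calls say little about the other genes of the pathways, because few genes of the background met them. A list of 24 genes held the targets CDK4 and CDK6 with their D-type cyclins, the RB family and E2F factors, the other CDK inhibitors, Trp53 with Mdm2 and Mdm4, the Polycomb genes Bmi1, Cbx7 and Ezh2, and Prmt5 and Mat2a, which cells without Mtap depend on. Of these 0 were called lower and 0 higher in LLC-R, beside 0% and 0.0545% of genes, and 1 was low in each line, beside 3.95% and 3.93%. Their median gene body levels were 1.23 in LLC-NR versus 1.15 in LLC-R, close to those of all genes. The low gene was Cdkn2d, which encodes p19Ink4d and lies on chromosome 9. It held 0 or 1 peaks per library, and 4.22% of its 32-base words are unique, so that its absence from the data cannot be read as missing DNA.

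Markers of host cells and of lung epithelium were 5 leukocyte, 4 endothelial, 5 fibroblast and 6 lung epithelial genes. None had a low gene body, beside 3.95% and 3.93% of genes, or was past 1.5-fold in all 4 marks, a call that 0% of genes met in the lower and 0.0545% in the higher direction, so these counts say little. Their promoters held 24, 20, 26 and 33 H3K4me3 peaks in LLC-NR versus 20, 17, 26 and 32 in LLC-R, summed over each list, and no marker was without one. For H3K9ac the sums were 33, 23, 37 and 37 in LLC-NR versus 25, 24, 27 and 29 in LLC-R, and 3 leukocyte, 0 endothelial, 3 fibroblast and 3 lung epithelial promoters were lower in LLC-R by 2 or more peaks, beside 22.1% of all promoters. For H3K27me3 they were 24, 24, 31 and 32 versus 30, 24, 34 and 39, and for H3K36me3 23, 13, 23 and 22 versus 32, 24, 32 and 33. Among all promoters 32% were higher in LLC-R by 2 or more peaks for H3K27me3 and 56% for H3K36me3, so these rises are not particular to the markers. Since H3K4me3 peaks were present at most promoters of the genome, the numbers do not give the share of host cells, and the part of host cells in the levels of the low segment was not tested.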

How the data were processed

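Isograft ChIP-seq libraries of 4 marks in LLC-NR and LLC-R were compared, 1 library per line and mark, grouped by their titles. The authors aligned reads to mm9 with Bowtie 0.12.7, used reads with 1 mapped position and ran GeneTrack on every library, whose settings are not given in the sources used here. The deposited files hold the start and end positions of peaks of 147 bp, and no score, height or read number was used.

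A peak was counted where its midpoint lay. Tiles of 10 kb with over 10% undetermined bases were left out. Gene models were GENCODE vM1 and the sequence NCBIM37, which is mm9. A 32-base word was unique when it occurred once in the genome on both strands; the read length is not given in the sources used here, so 32 bases is a choice. The low segment was fitted by weighted least squares with 2 edges over 1-kb bins with at least 500 unique words. A promoter difference means 2 or more peaks, and a gene body difference 1.5-fold with 1 peak added. The genes named are the 4 members, genes in or beside low stretches, and the 5 genes nearest in pattern to Cdkn2a and to Cdkn2b. The members, lists and rules were chosen with earlier results of these data known, and the segment, its edges and the count per unique word were chosen after seeing the data. Counting was tested on simulated data. Alternatives covered tile width, reference, thresholds, counting rule, promoter region and start site. The tools were NumPy 2.4.6, pandas 2.3.3, Numba 0.67.0, SciPy 1.17.1 and Matplotlib 3.10.9 in Python 3.11.15.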

Additional observations from a re-analysis of the deposited data

How the results depend on the processing

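The limits include the absence of replicates and of input, peak positions without heights, and mixed tumor and host cells. No paired analysis was possible because each group holds 1 library and the labels give no replicate numbers. Counts of a few peaks per promoter or in Cdkn2b could not show moderate differences. The low-tile rule broke up easily: on simulated data it rarely recovered a long stretch of lowered level. Some of those stretches were planted at the cut of 0.5 itself, where recovery was all but impossible by design. The low segment, at mean levels of 0.584 in LLC-NR and 0.654 in LLC-R, lay above the cut, so the simulation does not speak to it. The cause of the changes listed here was not tested.

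The total length of low tiles in the window was 100 kb in LLC-NR and 120 kb in LLC-R. In LLC-NR it moved to 180 kb with 5-kb tiles, 160 kb with shifted tiles, 180 kb at a level under 0.6 and 230 kb when at least 3 of 4 libraries sufficed, and in LLC-R to 190 kb at 0.6. With tiles of at least 80% unique words only, it was 10 kb in LLC-NR and 0 kb in LLC-R, and so was the longest run. That run otherwise lay between 40 and 60 kb and always in the interferon cluster. The median level of the window in LLC-NR was 0.992 with 5-kb tiles, 0.989 with shifted tiles, 0.935 against all autosomes, 1.04 with unique tiles and 1.01 against the mean tile. In LLC-R it was 0.933 with 5-kb tiles, 0.878 with 20-kb tiles, 0.972 with unique tiles, 0.981 against the mean tile and 0.903 by any overlap.

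The level of the low segment, added after seeing the data, stayed below 1 in all 7 alternatives of each line. Per base it was 0.613 in LLC-NR versus 0.686 in LLC-R, and against the flanks 0.515 and 0.616. Leaving out a mark gave 0.613 without H3K4me3 and 0.528 without H3K27me3 in LLC-NR, and 0.703, 0.680 and 0.591 without H3K4me3, H3K9ac and H3K27me3 in LLC-R. Its length was 373 to 427 kb. No member was past the fold in all 4 marks under any of 8 alternatives, which include a smaller fold. By the rule used almost no gene met this call, so that count says little. The mean gene body levels of the members stayed within counting error under all 6 of their alternatives. The pairs of promoter and mark lower in LLC-R, 3 by the rule used, were 5 over every annotated start, and those higher, also 3, were 8 over every start, 5 with 1 kb on both sides and 1 with 0.5 kb on both sides.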
